A study of Homo sapiens with 8 samples.

Results

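The RNA of 10 genes of the transforming growth factor beta (TGF-beta) and bone morphogenetic protein (BMP) pathways was measured in Hct116, a human cell line derived from a colorectal carcinoma. The genes were taken by their symbols from the 23459 rows of the count table. They are the receptors TGFBR1, TGFBR2 and ACVR2A, the SMAD genes SMAD3, SMAD4, SMAD6 and SMAD7, and ID1, ID2 and ID3. Cells received 30 μM lenalidomide, a thalidomide derivative that redirects the CRL4-CRBN ubiquitin ligase, or DMSO, its solvent, for 16 h, with 4 replicates of each treatment and no genetic change in either group. Per the study's methods, the medium was exchanged as treatment began in both groups, for one with isotope-labelled amino acids and dialysed serum, whereas the labels name DMEM with FBS. Some replicates were label swaps, in which the isotope labels were reversed, and which libraries these are was not known here. Gene counts from total RNA libraries were available for 8 libraries. The labels and the study's figure legend call the replicates biological, whereas its mass spectrometry methods call the 4 of this experiment technical. Separate cultures are not named, so that p-values measure the spread between these libraries only.

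Ligands of the TGF-beta and activin branch or of the BMP branch bring a type II and a type I receptor together, both of them serine/threonine kinases. The type II receptor activates the type I receptor, which phosphorylates receptor-activated SMAD proteins. These join SMAD4 and enter the nucleus. The inhibitory SMADs, SMAD6 and SMAD7, are switched on by the pathway and restrain it. The ID proteins are helix-loop-helix proteins without a DNA-binding region that hold back their E protein partners, and their genes are classical BMP targets. In the colon epithelium the TGF-beta branch limits growth, and tumours deficient in DNA mismatch repair, a class to which Hct116 belongs, often shift the reading frame of TGFBR2 and ACVR2A at runs of a single base.

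The longest runs of TGFBR2 and ACVR2A are shown because such runs are the reason why both type II receptors are of interest in this cell line. The run of SMAD7 is shown only for its length. All are reference sequence (GRCh37, the build of the authors' alignment, with GENCODE coding exons), not sequence read from these cells. Which of them is altered in these cells or in tumours is not shown here. Each is printed 5′ to 3′ on the coding strand, with the run in capitals and up to 10 bases on either side.
TGFBR2, exon 3, chr3:30691862-30691891, plus strand: attatgaaggAAAAAAAAAAgcctggtgag
ACVR2A, exon 3, chr2:148657031-148657058, plus strand: gattgtgtagAAAAAAAAgacagccctg
ACVR2A, exon 10, chr2:148683676-148683703, plus strand: tgttgtgcatAAAAAAAAgaggcctgtt
SMAD7, exon 2, chr18:46474785-46474807, minus strand: agtctCCCCCCCCtccttactcc

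TGFBR2 held 1 run of 10 A, at coding bases 374 to 383 of 1701, and ACVR2A held 2 runs of 8 A in a coding sequence of 1539 bases. An A run of at least 10 was found in 59 of 19894 coding sequences (0.297%), and one of at least 8 in 800 (4.02%). SMAD7, an inhibitory SMAD, is the 1 other member with a run of at least 8 of any base, here 8 C, a length that 1139 coding sequences (5.73%) reached. In the remaining 7 genes the longest run was of 5 or 6 bases. The counts are sums per gene, so that they give the amount of RNA from TGFBR2 and ACVR2A and not its reading frame.

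Library totals ran from 35268940 to 37473413 counts with DMSO and from 28218471 to 33659982 with lenalidomide, so that every lenalidomide library was smaller. Lenalidomide replicate 4 had both the lowest total and the most genes with any count, 19568 against 16953 to 18476 in the other libraries. Epithelial identity was in part visible in the RNA. Of 9 colon epithelial markers, 6 had a mean of at least 1 CPM (a count divided by its library's TMM-scaled total and multiplied by a fixed constant, so that libraries can be compared), led by KRT19 at 836.2 CPM, while CEACAM5, VIL1 and LGALS4 never exceeded 2 counts in a library. The summed level of this list was 2294 to 2595 CPM with DMSO and 2219 to 2553 CPM with lenalidomide. Of 6 immune and 4 endothelial markers none reached 1 CPM, and of 6 fibroblast markers COL1A1 alone did.

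All 10 genes had enough counts to be tested, from 87 counts for SMAD6 in its lowest library to 4868 for SMAD4 in its highest. Per kilobase of exonic width, ID1 had the highest level at 77.4 CPM per kb and ID2 the next at 54.7. TGFBR1 (13.6 CPM per kb), SMAD3 (12.6) and SMAD4 (10.9) followed, then ID3 (8.03), TGFBR2 (7.69), ACVR2A (4.25), SMAD7 (1.80) and SMAD6 (0.924). Over the 8 libraries the ranges of TGFBR1 and SMAD3 overlapped, as did those of ID3 and TGFBR2, and the other neighbours in this order did not overlap. The median of the 13925 genes tested was 6.41 CPM per kb. Among these genes ID1 was at percentile 94.0, ID2 at 91.0, TGFBR2 at 54.3, ACVR2A at 41.4, SMAD7 at 27.0 and SMAD6 at 18.3. The RNA of both type II receptors with long A runs was thus near the middle of the genes tested.

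**Figure D1:**
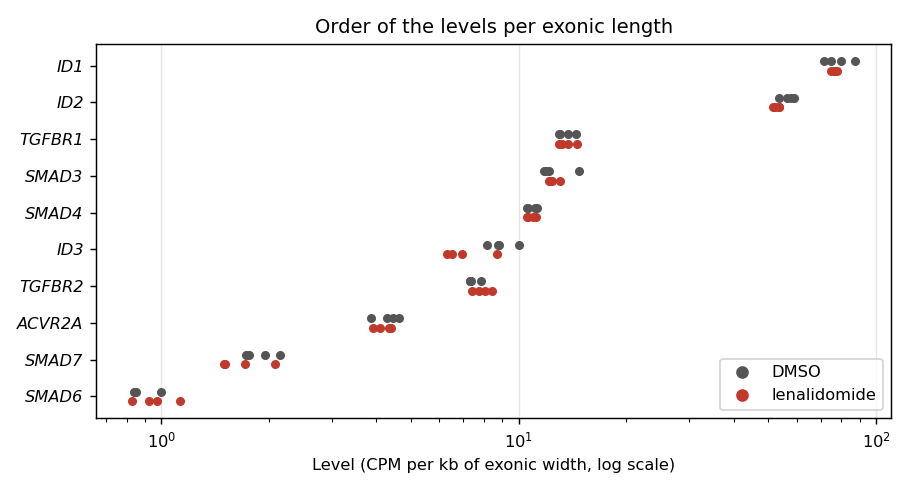
Level of each of the 10 genes in every library, in CPM per kb of exonic width on a log axis, with DMSO in grey and lenalidomide in red. ID1 and ID2 lie apart at the top, between 51.5 and 87.4 CPM per kb, and SMAD6 and SMAD7 at the bottom, between 0.831 and 2.15.

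The effect of lenalidomide was then tested across all 13925 genes with the quasi-likelihood method of edgeR, and p-values were adjusted over all of them (Benjamini-Hochberg). None of the 10 genes had an adjusted p under 0.05, against 2 of all genes (0.0144%), and the adjusted p was 0.999 for each of the 10. At an unadjusted p under 0.05 there was 1 member, ID3, which was lower, where 4.18% of all genes passed in either direction, 3.26% as higher and 0.919% as lower. DESeq2 gave 0 members at an adjusted p under 0.05 and 2 at an unadjusted p under 0.05, ID2 and ID3. The treatments overlapped in all 10 genes, whereas 2.08% of all genes had no overlap (1.24% higher and 0.84% lower). The log2 fold change was below 0 for 7 members and above 0 for 3, with a median of -0.030, beside 51.3% above 0 and a median of 0.0025 over all genes.

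**Figure D2:**
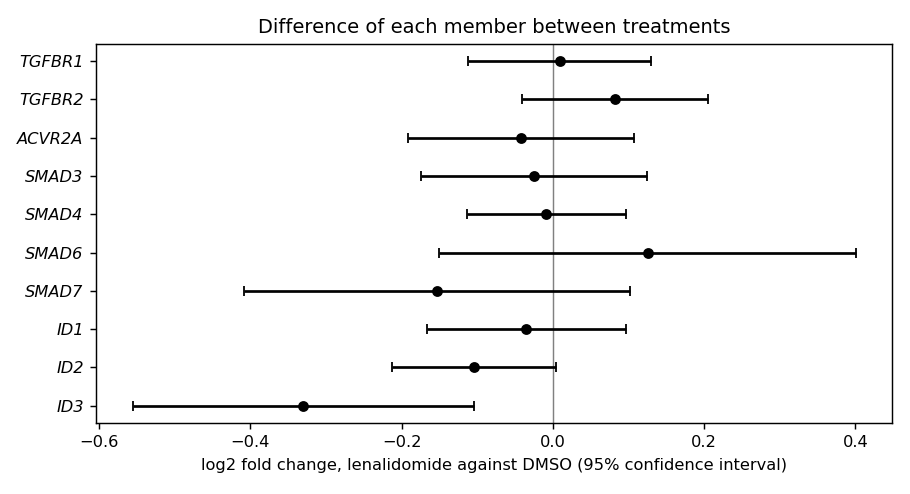
Log2 fold change of each member, lenalidomide against DMSO, as points with 95% confidence intervals from the quasi-likelihood fit. The interval excludes 0 only for ID3, from -0.56 to -0.10, before any adjustment for the number of genes.

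TGFBR1 (Entrez gene 7046; chromosome 9 of GRCh37, 101866320 to 101916474, plus strand) encodes the type I receptor that carries the TGF-beta signal to SMAD2 and SMAD3. It had 94.8, 85.5, 85.8 and 90.6 CPM in DMSO replicates 1 to 4 and 87.2, 90.6, 96.0 and 85.2 CPM with lenalidomide. Both treatments spanned nearly the same range. Its log2 fold change of 0.0089 (standard error 0.056) had a 95% confidence interval from -0.11 to 0.13.

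TGFBR2 (Entrez gene 7048; chromosome 3, 30648093 to 30735634, plus strand) encodes the type II receptor that binds TGF-beta. Its DMSO values were 34.5, 34.7, 36.96 and 34.5 CPM, and its lenalidomide values 36.5, 34.8, 37.9 and 39.7 CPM. The highest DMSO library, replicate 3, was above 2 of the 4 lenalidomide libraries. Lenalidomide differed by 0.082 on the log2 scale (standard error 0.057), and the 95% confidence interval, from -0.041 to 0.21, corresponds to 0.972- to 1.15-fold. Without lenalidomide replicate 4 the difference was 0.051, without lenalidomide replicate 2 it was 0.11 and without DMSO replicate 3 it was 0.10.

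ACVR2A (Entrez gene 92; chromosome 2, 148602086 to 148688395, plus strand) encodes a type II receptor for activins and some BMPs. With DMSO it had 23.3, 24.2, 21.0 and 25.1 CPM, and with lenalidomide 21.2, 22.3, 23.9 and 23.5 CPM. DMSO replicate 3 was the lowest of the 8 libraries, so that the lenalidomide values lay inside the DMSO range. This gave a log2 fold change of -0.043 (95% confidence interval -0.19 to 0.11). With 1 library left out it ran from -0.095 without DMSO replicate 3 to -0.0071 without DMSO replicate 4, and was -0.026 without DMSO replicate 2. Among the lenalidomide libraries, leaving out replicate 1 gave -0.011 and leaving out replicate 3 gave -0.068. Its exons overlap those of ORC4 and of a long noncoding RNA on the opposite strand, whose reads cannot be told apart unless counting used strand, for which no setting is named.

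Neither receptor-activated nor common SMAD moved beyond the replicate spread. SMAD3 (Entrez gene 4088; chromosome 15, 67356101 to 67487511, plus strand), the transcription factor activated by TGFBR1, had 78.1, 78.8, 97.8 and 80.8 CPM with DMSO and 80.5, 81.1, 81.9 and 86.3 CPM with lenalidomide. DMSO replicate 3 stood above the other libraries, and the sign of the difference rested on it. It was -0.025 on the log2 scale (95% confidence interval -0.17 to 0.13) with all libraries and 0.054 without DMSO replicate 3. An opposite-strand long noncoding RNA overlaps its exons.

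SMAD4 (Entrez gene 4089; chromosome 18, 48554898 to 48611415, plus strand), the partner shared by both branches, was the steadiest member with DMSO, with a coefficient of variation of 3.23% there and 2.82% with lenalidomide. Its values were 130.3, 122.7, 122.1 and 128.2 CPM with DMSO and 122.3, 122.1, 126.6 and 129.4 CPM with lenalidomide. Each treatment covered nearly the same span. A log2 fold change of -0.0084 was found (95% confidence interval -0.11 to 0.097). Its exons are shared with another gene model on the same strand, annotated as protein coding.

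SMAD6 (Entrez gene 4091; chromosome 15, 66994574 to 67075187, plus strand), which chiefly restrains BMP signals, had 2.65, 3.15, 2.66 and 2.69 CPM with DMSO and 3.08, 2.62, 2.92 and 3.57 CPM with lenalidomide. The lowest value of all was in a lenalidomide library, and so was the highest. At 87 to 114 counts per library, its log2 fold change of 0.13 had a wide 95% confidence interval, from -0.15 to 0.40. It was 0.044 without lenalidomide replicate 4, 0.19 without lenalidomide replicate 2 and 0.19 without DMSO replicate 2. SMAD7 (Entrez gene 4092; chromosome 18, 46446223 to 46477335, minus strand), which acts against both branches at the receptor, had 5.94, 6.07, 7.39 and 6.71 CPM with DMSO and 5.19, 5.16, 7.18 and 5.93 CPM with lenalidomide. Lenalidomide replicates 1, 2 and 4 lay under all DMSO values, and replicate 3 near the top of them. For SMAD7 the log2 fold change was -0.15 (95% confidence interval -0.41 to 0.10), and -0.27 without lenalidomide replicate 3. It was smaller in size, at -0.093, without DMSO replicate 3, and likewise at -0.0996 and -0.095 without lenalidomide replicates 1 and 2. Its lowest adjusted p over the alternatives, by edgeR or DESeq2, was 0.888.

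**Figure D3:**
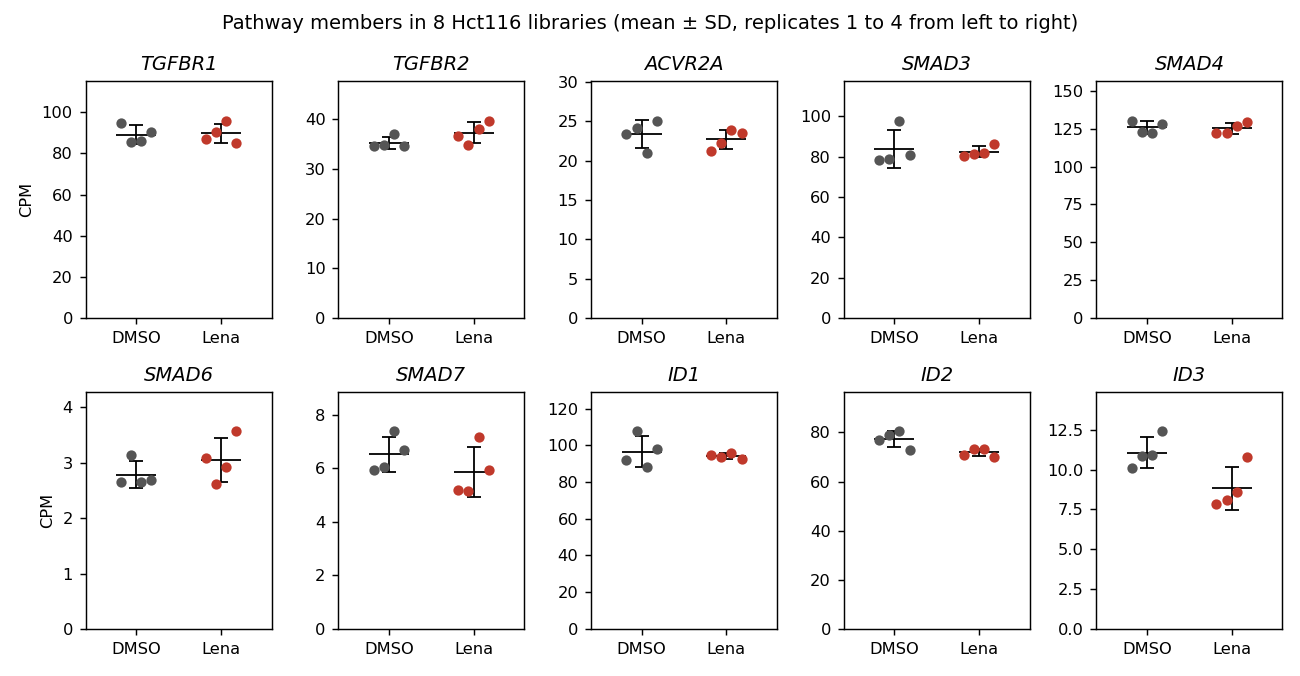
CPM of each of the 10 genes in the 4 DMSO (grey) and 4 lenalidomide (red) libraries, on linear axes from 0, with the mean and SD of each treatment as bars. Treatments overlap in all panels, and 3 of the 4 lenalidomide points of ID3, between 7.82 and 8.61 CPM, lie under its lowest DMSO point of 10.1 CPM.

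Among the ID genes, ID1 (Entrez gene 3397; chromosome 20, 30193086 to 30194318, plus strand) differed least between treatments. Its values were 92.2, 107.7, 88.2 and 98.0 CPM with DMSO and 94.5, 93.8, 95.9 and 92.4 CPM with lenalidomide. The lenalidomide libraries, between 92.4 and 95.9 CPM, lay inside the DMSO range. ID1 had a log2 fold change of -0.035 (95% confidence interval from -0.17 to 0.096), or of 0.021 without DMSO replicate 2.

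ID2 (Entrez gene 3398; chromosome 2, 8818975 to 8824591, plus strand) had 76.9, 79.0, 80.5 and 72.9 CPM with DMSO and 71.0, 73.2, 73.2 and 70.2 CPM with lenalidomide. DMSO replicate 4 alone, which lay under lenalidomide replicates 2 and 3, brought the treatments to overlap. On the log2 scale the difference was -0.10 (95% confidence interval -0.21 to 0.0037, unadjusted p = 0.0573 in the quasi-likelihood test of edgeR). Its exons overlap those of the opposite-strand gene ID2-AS1.

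ID3 (Entrez gene 3399; chromosome 1, 23884417 to 23885992, minus strand) had the largest difference of the 10. With DMSO it had 10.1, 10.9, 10.9 and 12.4 CPM, a mean of 11.1 ± 0.969 CPM (SD, n = 4), and with lenalidomide 7.82, 8.08, 8.61 and 10.8 CPM, a mean of 8.82 ± 1.35 CPM (SD, n = 4). Lenalidomide replicate 4 was the 1 library that overlapped with DMSO. ID3 RNA thus differed by -0.33 on the log2 scale (standard error 0.11, 95% confidence interval -0.56 to -0.10). In the quasi-likelihood test of edgeR the unadjusted p was 0.00735 and the adjusted p 0.999. Over 14 alternatives its log2 fold change ran from -0.44 to -0.27, the former without lenalidomide replicate 4. The part of the low total and the many detected genes of that library in these values was not tested. Over the same alternatives the adjusted p of ID3, by edgeR or DESeq2, ran from 0.205, with a replicate block, to 0.9999. No other gene overlaps the exons of ID3.

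The 3 ID genes did not follow each other over the libraries. Pearson's r of log2 CPM over the 8 libraries, all of which share their totals between genes, was 0.0886 between ID1 and ID2, 0.163 between ID1 and ID3 and 0.360 between ID2 and ID3. After removal of the treatment means these became -0.104, 0.023 and -0.517. With 8 points such values are a description only.

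Among the 9094 genes that averaged 10 CPM or more, those nearest to ID3 over the 8 libraries were FOS (r = 0.929) and JUNB (r = 0.927), both subunits of the AP-1 transcription factor and early genes of growth factor stimulation, then PIP5K1A (0.893), PKNOX1 (0.886) and LYPLA2 (0.876). FOS had 17.4, 15.04, 21.0 and 48.2 CPM with DMSO and 7.04, 5.88, 10.8 and 15.05 CPM with lenalidomide. JUNB had 19.6, 23.9, 21.0 and 23.0 CPM with DMSO and 17.1, 17.0, 19.0 and 21.4 CPM with lenalidomide. In ID3, FOS and JUNB alike, lenalidomide replicate 4 was the highest lenalidomide library and replicates 1 and 2 were the lowest. The genes nearest to ID1 were others, namely COX7A2 (0.981), WDR61 (0.979), MTMR6 (0.956), DUSP11 (0.955) and TMEM206 (0.955). These are the top values of many genes, in libraries that share depth and composition, and carry no test. Treatment means were not removed for them, so that a difference shared between treatments counts in r. ID3 and the genes nearest to it were all lower with lenalidomide, FOS by a log2 fold change of -1.40. For FOS, DMSO replicate 4 stood high, at 48.2 CPM against 15.04 to 21.0 CPM in the other DMSO libraries, which enlarges this difference.

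**Figure D4:**
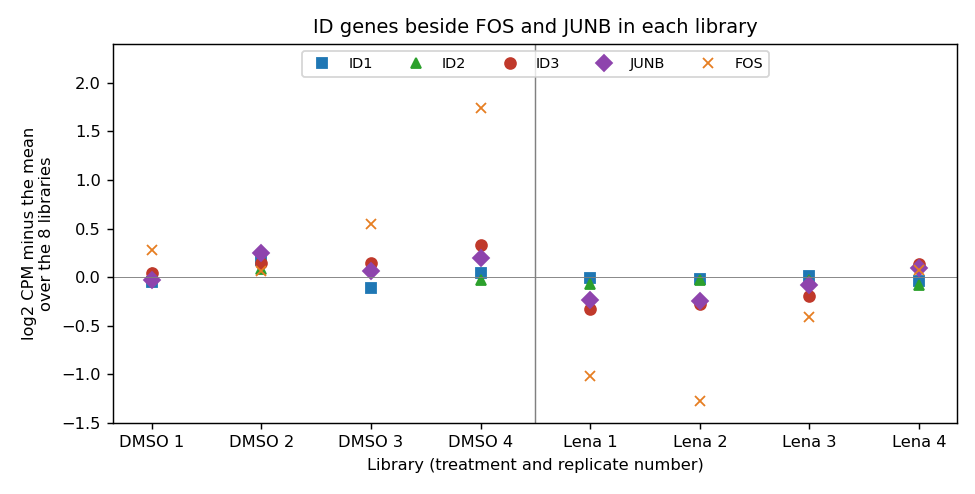
Log2 CPM of ID1, ID2, ID3, JUNB and FOS in each library, as the difference from the gene's mean over the 8 libraries, with DMSO on the left and lenalidomide on the right. ID3, JUNB and FOS are each lowest in lenalidomide replicates 1 and 2 and lie above their mean in lenalidomide replicate 4, while ID1 and ID2 are within 0.2 of 0 in every library.

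The members were set beside a list of 120 genes of the pathways, from ligands to targets, which includes the 10. Of these 80 had enough counts to be tested. No gene passed an adjusted p of 0.05 in either direction, with edgeR's quasi-likelihood test or with DESeq2. An unadjusted p under 0.05 was found for 8 (4 higher and 4 lower) by the former, where 4.18% of all genes passed, and for 7 by DESeq2. Log2 fold changes were above 0 for 39 and below 0 for 41, with a median of -0.0030 beside 0.0025 over all genes. Treatments did not overlap for 5 of the 80, beside 2.08% of all genes.

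Upstream of the receptors, 13 of 32 ligand genes could be tested. BMP4, a BMP ligand, was the most abundant at 64.9 CPM per kb, with a log2 fold change of -0.050 (95% confidence interval -0.22 to 0.12). TGFB1, the main TGF-beta ligand, had 11.9, 11.8, 12.6 and 11.5 CPM with DMSO and 12.1, 12.7, 14.8 and 14.4 CPM with lenalidomide. These overlapped in 1 pair of libraries, with a log2 fold change of 0.18 (unadjusted p = 0.0430 and adjusted p = 0.999 in the edgeR fit). The unadjusted p was 0.0709 with DESeq2. In the edgeR fit it was 0.137 without lenalidomide replicate 3 and 0.111 without lenalidomide replicate 4. TGFB2 was scarce, at 31 to 49 counts per library, and did not overlap between 0.906 to 1.20 CPM with DMSO and 1.23 to 1.66 CPM with lenalidomide (log2 fold change 0.42, unadjusted p = 0.0299 and adjusted p = 0.999 by the same edgeR test). TWSG1, a secreted BMP modulator, was the highest of 8 tested latency and antagonist genes at 18.5 CPM per kb, and its log2 fold change was 0.0056.

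At the membrane 6 of 7 type I receptors and 4 of 5 type II receptors could be tested, and TGFBR1 and TGFBR2 were the highest of their kinds per kb. ACVRL1, a type I receptor best known from endothelium, did not overlap between treatments, at 0.134 to 0.396 CPM with DMSO and 0.452 to 0.520 CPM with lenalidomide. These values rest on 5 to 15 counts per library (log2 fold change 1.0, standard error 0.35, unadjusted p = 0.0119 and adjusted p = 0.999 by edgeR's quasi-likelihood test). The highest count, 15, was reached in both treatments. Every lenalidomide library had a smaller total, so that an equal count gives a higher CPM there. The summed level of the 4 endothelial markers was 0.552 to 0.759 CPM with DMSO and 0.482 to 1.07 CPM with lenalidomide. Whether it bears on ACVRL1 was not tested. NEO1, a co-receptor through its RGM ligands, was the highest of 5 tested co-receptor and decoy genes, with a log2 fold change of -0.0028.

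Inside the cell, SMAD5, a BMP-activated SMAD, had the highest mean level of the SMAD genes at 21.5 CPM per kb. Its range over the libraries, 18.5 to 22.7 CPM per kb, overlapped that of SMAD2, 16.9 to 18.6. SMAD5 had a log2 fold change of 0.040 (95% confidence interval -0.097 to 0.18). The 5 receptor-activated SMADs lay between -0.12 and 0.040. Of 16 intracellular regulators, NEDD4L and WWP1, ubiquitin ligases that can act on SMADs and receptors, had an unadjusted p under 0.05, NEDD4L lower and WWP1 higher, where 0.919% of all genes passed as lower and 3.26% as higher. NEDD4L had 74.8, 68.4, 78.0 and 71.2 CPM with DMSO and 66.6, 63.2, 65.0 and 61.7 CPM with lenalidomide, with no overlap (log2 fold change -0.19, standard error 0.055, unadjusted p = 0.00401 and adjusted p = 0.999 by edgeR's quasi-likelihood test). WWP1 was between 67.0 and 71.5 CPM with DMSO, and its log2 fold change of 0.20 came from lenalidomide replicates 3 and 4, at 89.0 and 88.4 CPM against 67.7 and 71.8 CPM in the others. STRAP, a receptor-associated WD repeat protein, was the most abundant gene of the list at 131.2 CPM per kb and had a log2 fold change of 0.025.

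Of 17 listed targets of the TGF-beta branch, 12 had enough counts to be tested, and 1 of these had only 5 to 16 counts per library. Among the 12 tested genes, 10 had a log2 fold change below 0. The median of the 12 was -0.12 beside 0.0025 over all genes, of which 51.3% were above 0. That list was chosen with earlier results of these data known, and the count of signs was not tested. Of the 12, 2 were lower at an unadjusted p under 0.05, where 0.919% of all genes were. These 2 were JUNB, at -0.23 and with overlapping treatments, and KLF10, an early TGF-beta-induced repressor, at -0.18. For JUNB the unadjusted p in the edgeR fit was 0.0593 without DMSO replicate 2, and 0.0543 and 0.0511 without lenalidomide replicates 1 and 2. KLF10 had 91.7, 93.0, 113.6 and 88.9 CPM with DMSO and 86.3, 84.9, 90.5 and 81.0 CPM with lenalidomide, so that DMSO replicate 3 stood high as it did for SMAD3. Without that library its log2 fold change was -0.094, with an unadjusted p of 0.0910 in the edgeR fit. CDKN1A, a cell cycle inhibitor, had the highest mean level of these targets at 35.1 CPM per kb, in a range that overlapped that of KLF10. CDKN1A had a log2 fold change of -0.015 (95% confidence interval -0.15 to 0.12). Of 13 tested BMP targets, which include the 3 ID genes and both inhibitory SMADs, 8 were below 0 and 5 above, and ID3 was the 1 with an unadjusted p under 0.05, where 4.18% of all genes passed in either direction. ID4, the remaining member of the ID family, reached 11 counts at most and was not tested.

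**Figure D5:**
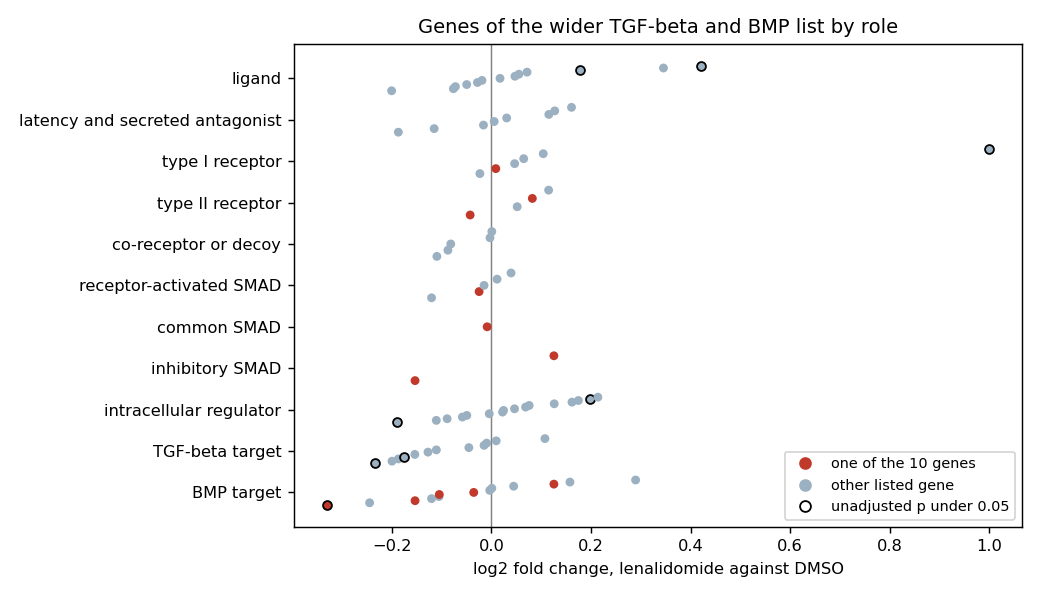
Log2 fold change, lenalidomide against DMSO, of the 80 tested genes of the wider list, in rows by role, with the 10 members in red and a black ring for an unadjusted p under 0.05. Genes with 2 roles appear in both rows, and most points lie within 0.2 of 0, with ACVRL1 at 1.0 and ID3 at -0.33 at the ends.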

How the data were processed

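Total RNA libraries of Hct116 cells (ScriptSeq v2) were sequenced on an Illumina instrument. Per the submitters' processing notes, bcl2fastq 2.17 was used. The authors aligned reads to hg19 with QuasR, with spliced alignment, and deposited raw counts per gene of the UCSC known genes, with the exonic width, without normalization. Intronic counts were not used here. Of 23459 genes, 70 without a symbol (0.0223% of counts) were kept.

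The analysis used edgeR 4.0.16 and DESeq2 1.42.0 in R 4.3.3. filterByExpr (minimum count 10, minimum total 15) left 13925 genes. TMM scaling, glmQLFit and glmQLFTest compared lenalidomide with DMSO, 4 libraries each, without a block. Standard errors and 95% confidence intervals come from the coefficient and its F statistic. Log2 CPM for correlations used a prior count of 2. The test was checked on simulated counts. Totals of 28218471 to 37473413 counts limit the precision, and intervals include the spread between replicates. Replicates of a treatment differed beyond sampling noise (chi-square per degree of freedom 5.80 to 25.5 over 12 pairs).

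The genes, lists and tests were chosen with earlier results of these data known. Genes named beyond the 10 had an unadjusted p under 0.05 in the wider list (at most 8), the highest level per kb of their role, or were the 5 nearest to ID1 or ID3. ID4, SMAD2 and the markers were named outside this rule. Gene positions and coding exons are from GENCODE on GRCh37. Same-numbered libraries were not treated as pairs. Alternatives were RLE scaling, DESeq2, both filters, thinning to the smallest total, a replicate block and leaving out each library.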

Additional observations from a re-analysis of the deposited data

Results flagged for a closer look

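Of 46 groups of 4 values examined, 7 held 1 library whose gap to the remaining 3 was large beside the group's range. Such a rule also marks small gaps where the remaining 3 are close together. For normally distributed values about 1 in 20 groups would be marked by chance, a rate that low counts need not follow. DMSO replicate 3 was that library for 4 genes. There TGFBR2 was at 36.96 CPM against 34.5 to 34.7 CPM in the other DMSO libraries, SMAD3 at 97.8 CPM against 78.1 to 80.8 CPM, KLF10 at 113.6 CPM against 88.9 to 93.0 CPM, and SMAD5 at 131.0 CPM against 155.4 to 157.6 CPM. Thus 3 of these were high and SMAD5 was low in that library. In DMSO replicate 2, SMAD6 had 3.15 CPM (114 counts) beside 2.65 to 2.69 CPM (91 to 102 counts) in its group. With lenalidomide, ACVRL1 was at 0.520 CPM in replicate 4, against 0.452 to 0.456 CPM, and TWSG1 at 81.8 CPM in replicate 3, against 69.0 to 71.1 CPM. ACVRL1 never exceeded 15 counts in a library, and lenalidomide replicate 4 had the lowest total, which raises the CPM of a given count. The causes of the gaps were not tested.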

How the results depend on the processing

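No member and no gene of the wider list had an adjusted p under 0.05 in any of the 14 alternatives, by edgeR's quasi-likelihood test or DESeq2. Of 140 log2 fold changes of the members under these, 131 kept their direction and 9 changed sign, all when 1 library was left out. Over all genes the count at an adjusted p under 0.05, which was 2, was 4 when 1 count in all sufficed, 7 with DESeq2 and 1 to 2 with each library left out. At an unadjusted p under 0.05 the members numbered 2 (ID2 and ID3) with thinning to the smallest total and with DESeq2, and 1 to 2 with each library left out, where ID2 joined without DMSO replicate 4 and SMAD7 without lenalidomide replicate 3. ID3 was among them in each alternative. Treatments did not overlap for 1 member, ID2, when 10 counts were required in each library and with thinning, and for 0 to 1 members with each library left out (ID3 without DMSO replicate 1 or lenalidomide replicate 4, TGFBR2 without DMSO replicate 3, ID2 without DMSO replicate 4, SMAD7 without lenalidomide replicate 3). The wider list at an unadjusted p under 0.05 numbered 4 to 12 with each library left out, the lowest without lenalidomide replicate 4. The cause was not tested.

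Leaving out each library changed the sign of log2 fold changes near 0, which ran from -0.025 to 0.036 for TGFBR1, -0.061 to 0.054 for SMAD3, -0.026 to 0.0049 for SMAD4, -0.080 to 0.021 for ID1, -0.12 to 0.011 for BMP4, -0.057 to 0.030 for TWSG1, -0.046 to 0.025 for NEO1, -0.024 to 0.063 for SMAD5, -0.017 to 0.050 for STRAP and -0.058 to 0.022 for CDKN1A. TWSG1 was also at -0.0028 when 1 count in all sufficed and at -0.0014 with DESeq2.

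With the replicate block 6 genes had an adjusted p under 0.05 and no member did. Deviations of same-numbered libraries correlated at -0.0241 to 0.268, and those of the 12 differently numbered pairs at -0.286 to 0.169, so the pairing was not used. Low counts limit genes such as SMAD6, SMAD7, TGFB2 and ACVRL1.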
